A study of Homo sapiens with 4 samples.

Results

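The miR-28 and miR-708 group comprises 3 of the 377 human miRNA assays on the card: hsa-miR-28-3p, hsa-miR-28-5p and hsa-miR-708, taken by name with any passenger strand left out. They were measured by quantitative PCR in RPMI8226, an established human cell line from multiple myeloma, a cancer of antibody-secreting plasma cells. The 4 groups were the exosome fraction of medium from hypoxic cells (1% O2), the exosome fraction from normoxic cells (20% O2), the hypoxic cells and the normoxic cells, all after 24 h of culture and with 1 sample each. The exosome fraction is what a precipitation reagent brought down from 5 ml of cleared and filtered medium, so it holds small vesicles together with whatever else precipitates. Its products alone were pre-amplified before the PCR, per the labels' protocols. The 3 assays were chosen by name, but with earlier results of these samples known, in which the cellular ratio of hypoxia over normoxia of miR-28-3p lay past 2-fold. The members' oxygen, compartment and arm values are therefore descriptions. With 1 sample a group and 1 well an assay, no difference below has a replicate error or a test.

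A miRNA hairpin is cut into a 5′ arm (-5p) and a 3′ arm (-3p), and either strand can be loaded into Argonaute, where bases 2 to 8, the seed, choose the target mRNAs. Both miR-28 arms are made from the same precursor in equal numbers, after which loading and stability set how much of each remains. miR-28 is expressed in germinal-centre B cells, the precursors of plasma cells, and its loss has been described in B-cell lymphomas. In colorectal cancer cells the arms were reported to act on different targets, with CCND1 and HOXB3 named for miR-28-5p and NM23-H1 for miR-28-3p. miR-708 is known in mouse cells as a miRNA induced with its host gene by CHOP, a transcription factor of endoplasmic reticulum stress. The mature miR-708 strand on the card is the -5p arm, which belongs to the same seed family as miR-28-5p.

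The strands below set miR-28-3p beside both miR-708 strands, with the seed in capitals and the letters from RefSeq (GRCh38.p14). The RefSeq table used had no entry for miR-28-5p. The seed family of miR-28-5p and miR-708-5p is therefore background and was not checked here. MIR28 lies within LPP and MIR708 within TENM4, both protein-coding genes. miR-708-3p has no assay on the card and is shown because it is the counterpart of miR-28-3p.
hsa-miR-28-3p (chr3:188688834-188688855, plus strand): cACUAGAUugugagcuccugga
hsa-miR-708-5p (chr11:79402077-79402099, minus strand): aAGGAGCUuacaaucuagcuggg
hsa-miR-708-3p (chr11:79402032-79402053, minus strand): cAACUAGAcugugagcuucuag
The seed of miR-28-3p, ACUAGAU, is not that of miR-708-5p, AGGAGCU, so the 3 assays do not form 1 seed family. Of 2370 mature miRNA names in the RefSeq table, none but miR-28-3p has the seed ACUAGAU. The seed of miR-708-5p was shared there with miR-3139, which has no assay on the card. Aligned without gaps at an offset of 1 base, miR-28-3p and miR-708-3p were identical at 17 of 21 positions. Their longest common run was UGUGAGCU, outside both seeds. miR-28-3p also holds a 9-base run, CUAGAUUGU, that is exactly complementary to a stretch of miR-708-5p.

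The threshold cycle (Ct) is the PCR cycle at which fluorescence passes a set line, so a lower Ct means more template and 1 cycle stands for a factor of 2 at full efficiency. The deposited values end at a ceiling of 35, read here as not detected. Of the 12 Ct values of the 3 members, 9 lay under the ceiling and 3 at it. A Ct was recorded for 219 assays in the hypoxic exosome fraction, 221 in the normoxic exosome fraction, 155 in hypoxic cells and 162 in normoxic cells. Recorded Ct values were also bunched at whole cycles: 67.1% in the hypoxic exosome fraction, 61.1% in the normoxic exosome fraction, 71.6% in hypoxic cells and 53.7% in normoxic cells lay within 0.1 cycle of a whole number, where an even spread would put 20%. Of the members' 9 values 5 did so, as the plot of decimal parts shows, and differences of about 1 cycle should be read with that grain in mind.

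**Figure D1:**
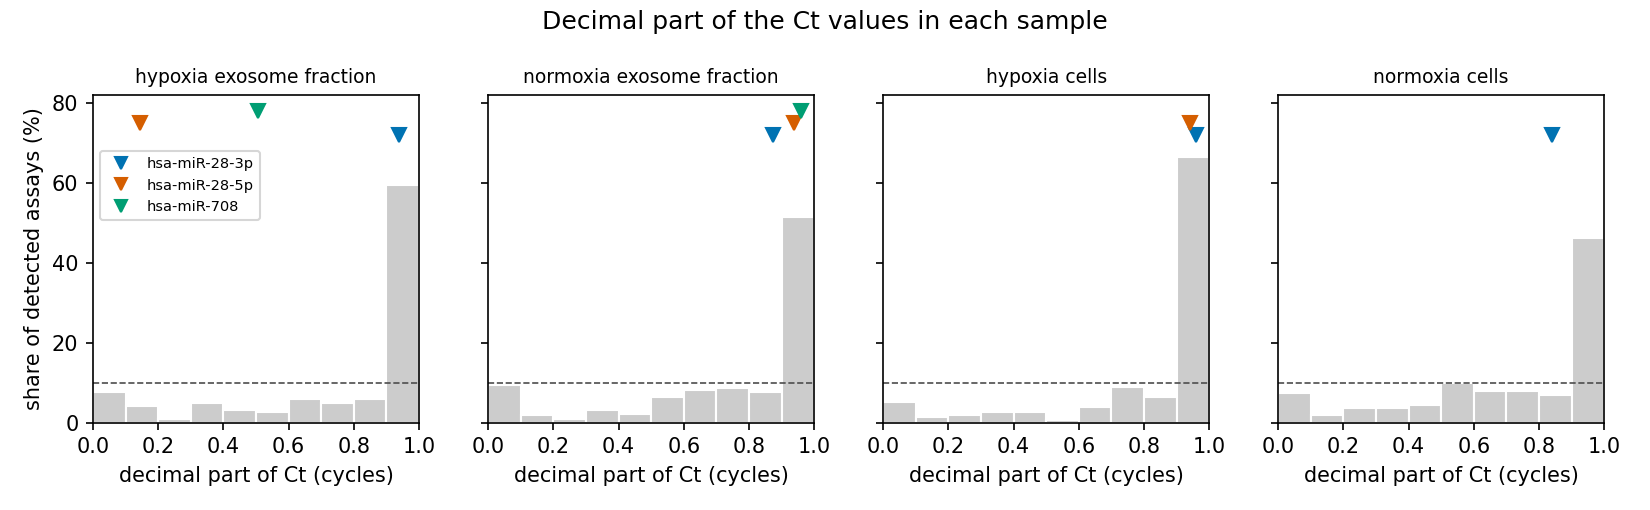
Decimal part of Ct (x axis, cycles) against the share of detected assays (y axis, percent) in each of the 4 samples; grey bars are all detected human miRNA assays, the dashed line is the 10% that an even spread would give each bar, and triangles mark the members' own decimals at heights with no meaning. The bar nearest the next whole cycle holds 59.4% of detected assays in the hypoxic exosome fraction, 51.6% in the normoxic exosome fraction, 66.5% in hypoxic cells and 46.3% in normoxic cells.

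miR-28-3p was the only member seen in all 4 samples. Its Ct was 25.94 in the hypoxic and 25.87 in the normoxic exosome fraction, and 32.96 in hypoxic and 31.84 in normoxic cells. Among each sample's own detected assays, 42.0% in the hypoxic and 43.0% in the normoxic exosome fraction had a lower Ct. In hypoxic cells 74.2% and in normoxic cells 56.8% did. These sets differ, with more assays detected in the exosome fraction, so the shares do not compare the compartments. Relative to the median of the 138 assays detected in all 4 samples, its log2 level was -1.95 in the hypoxic and -1.91 in the normoxic exosome fraction. In hypoxic cells it was -1.99 and in normoxic cells -0.93. The exosome samples differed by 0.06 cycle, whereas the hypoxic cells stood 1.12 cycles above the normoxic ones. The Ct of 32.96 is 2.04 cycles short of the ceiling.

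miR-28-5p was seen in 3 samples. Its Ct was 29.14 in the hypoxic and 28.94 in the normoxic exosome fraction, and 33.94 in hypoxic cells, while normoxic cells were at the ceiling. The value in hypoxic cells is 1.06 cycles from the ceiling and ranked 131 of 155 detected assays. The miR-28 arms therefore went opposite ways in cells: the 3′ arm had the later Ct in hypoxia and the 5′ arm appeared only there.

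miR-708 was seen in the exosome fraction alone. Its Ct was 31.51 in the hypoxic and 31.96 in the normoxic exosome fraction, with both cell samples at the ceiling. It ranked 180 of 219 detected assays in the hypoxic exosome fraction and 181 of 221 in the normoxic one, so it was a late assay in both. Pre-amplification of the exosome products raises the reach of the PCR there, so a member seen only in the exosome fraction is not shown to be lacking in cells. miR-708 shared this pattern with many assays: 50 were at the ceiling in both cell samples and under it in both exosome samples, and by mean exosome Ct 24 of them were earlier than miR-708 and 25 later.

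**Figure D2:**
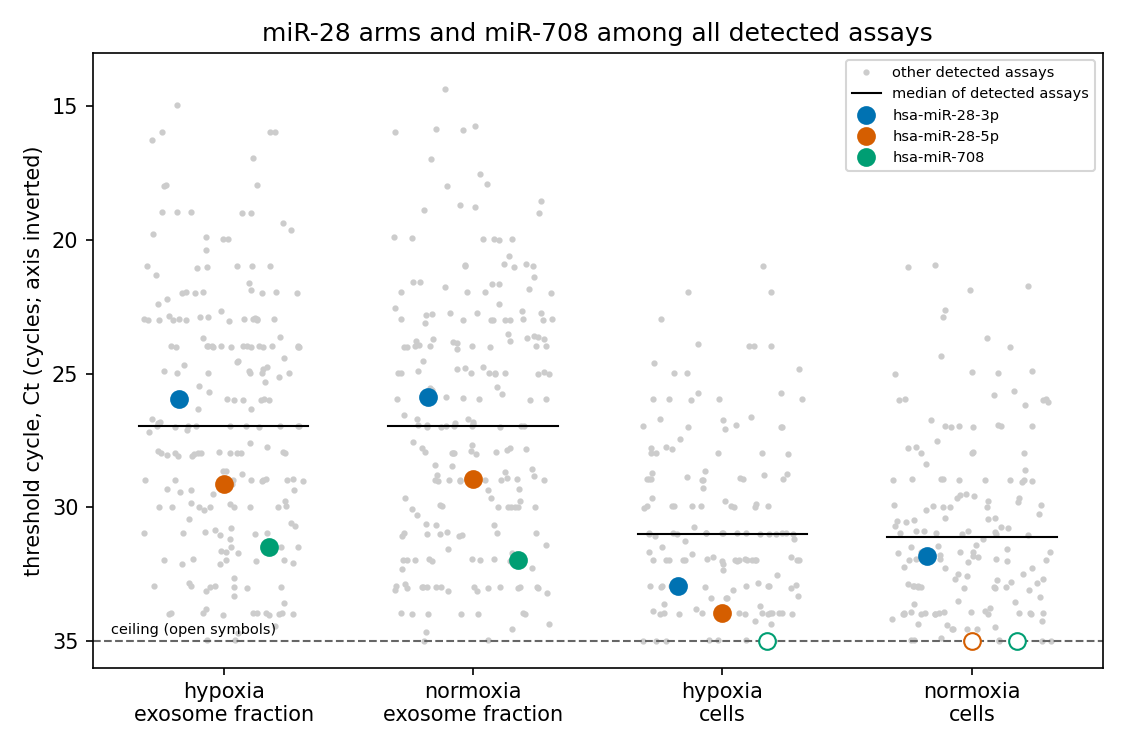
Ct (y axis, cycles, inverted so that more template is higher) in the hypoxic exosome fraction, normoxic exosome fraction, hypoxic cells and normoxic cells; coloured circles are the members, open circles stand at the ceiling of 35, grey points are all other detected assays and black lines their medians. miR-28-3p lies above the median in both exosome samples and below it in both cell samples, and miR-708 is filled only in the exosome fraction. Each median is over that sample's own detected assays, so places relative to it do not compare the compartments.

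The effect of oxygen in the exosome fraction was computed relative to the spike-in ath-miR159, a plant miRNA added at lysis, which had a Ct of 22.99 in the hypoxic and 22.94 in the normoxic sample. miR-28-3p was level, with a log2 ratio of hypoxia over normoxia of -0.01 (0.99-fold). miR-28-5p had a log2 ratio of -0.15 (0.90-fold) and miR-708 one of 0.51 (1.42-fold). None of the 3 was past 2-fold, against 7.39% of the 203 assays measured in both exosome samples. The absolute log2 ratio of miR-28-3p was exceeded by 196 of those 203, while miR-708 stood near the upper end, with 17 assays above it. In that order miR-28-3p stood between let-7c (-0.01) and miR-484 (-0.01), miR-28-5p between miR-502-3p (-0.16) and miR-221 (-0.14), and miR-708 between miR-545 (0.46) and miR-124 (0.55). Among the 50 assays seen only in the exosome fraction the median log2 ratio was 0.04, and 13 of them were higher than miR-708.

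The effect of oxygen in cells was computed relative to the mean of 4 wells of U6, a small nuclear RNA, whose Ct was 18.81 ± 0.12 in hypoxic and 18.82 ± 0.15 in normoxic cells (SD, n = 4 wells of 1 sample). miR-28-3p had a log2 ratio of hypoxia over normoxia of -1.13, which is 2.18-fold lower in hypoxic cells. Of the 147 assays measured in both cell samples, 6.12% were 2-fold or more lower; this contrast was known when the member was chosen, and nothing is read from its place there. There were 5 assays with a lower log2 ratio than miR-28-3p, and its neighbours were miR-185 (-1.18) below and miR-19a (-1.09) above. miR-28-3p was not among the assays under Ct 32 in both cell samples, since its hypoxic value was 32.96.

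For miR-28-5p in cells only a bound exists, because normoxic cells were at the ceiling. Taken against Ct 35, it was at least 2.08-fold higher in hypoxic cells (log2 1.05), and with the small nucleolar RNAs RNU44 and RNU48 in place of U6 the bound fell below 2-fold (log2 0.90). There were 8 assays seen in hypoxic cells and not in normoxic ones, with Ct values of 32.36 to 34.996 and a median of 33.64, and 6 of the 8 were detected in both exosome samples. miR-28-5p, at 33.94, was in the middle of these late values, with 4 earlier and 3 later. No ratio is given for miR-708 in cells, where neither sample held a measured value.

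The authors' deposited table lists hypoxia over normoxia ratios for all 3 members, ceiling values included. In the authors' deposited table the exosome ratios are 0.993 for miR-28-3p, 0.901 for miR-28-5p and 1.421 for miR-708. For cells the authors' deposited table has 0.4582 for miR-28-3p, 2.0752 for miR-28-5p and 0.9965 for miR-708. The value of miR-28-5p there is the bound given above, and that of miR-708 is the ratio of 2 ceiling values and carries only the U6 difference.

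**Figure D3:**
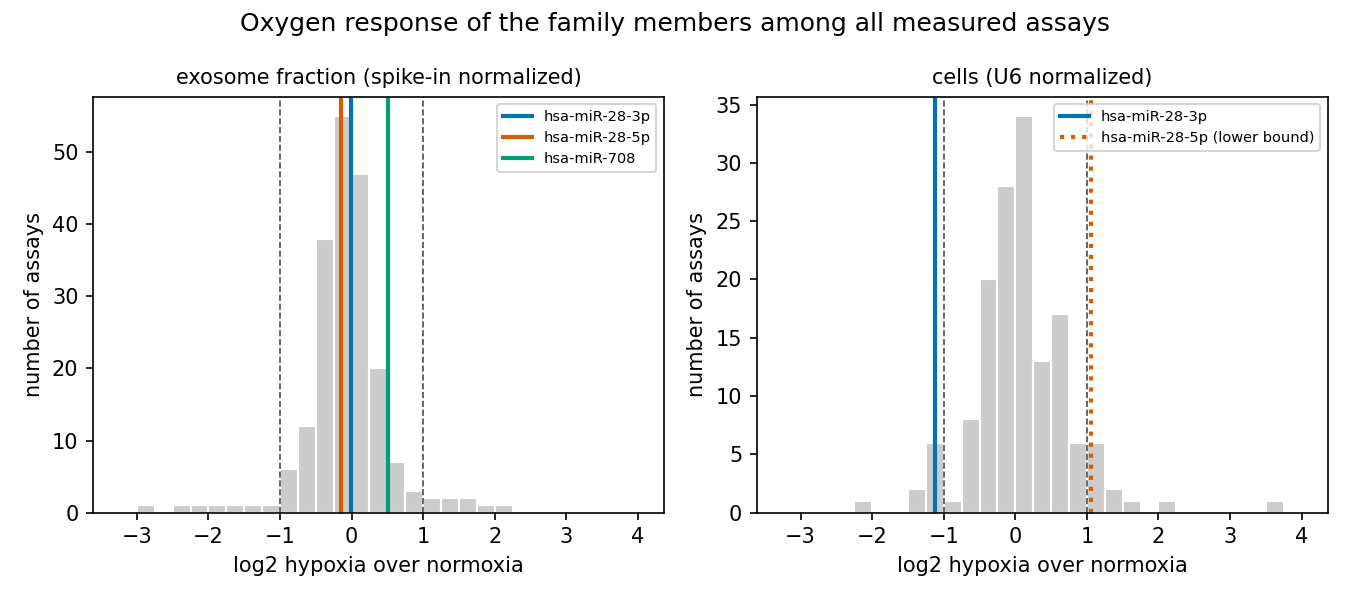
Histograms of the log2 ratio of hypoxia over normoxia (x axis) with the number of assays (y axis) in the exosome fraction, normalized to the spike-in, and in cells, normalized to U6; solid coloured lines are measured members, the dotted line is a lower bound and dashed black lines are 2-fold. The members lie at -0.01, -0.15 and 0.51 in the exosome fraction, and at -1.13 for miR-28-3p and at least 1.05 for miR-28-5p in cells.

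Set against each other, the oxygen effects on miR-28-3p were -0.01 in the exosome fraction and -1.13 in cells, a difference of 1.12 on the log2 scale. Among the 138 assays detected in all 4 samples, 5.8% had a difference of 2-fold or more in this direction; this contrast contains the cellular one known beforehand, and nothing is read from the share. The difference of miR-28-3p was exceeded by 7 assays, and the median was -0.17. Nearly all of it came from the cells, since the exosome samples hardly differed. For miR-28-5p the exosome ratio was close to 1, and the cellular bound was above 2 with U6 and below 2 with RNU44 and RNU48. The difference between the compartments was not tested.

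The arms of miR-28 can be compared within a sample with no normalizer, as the Ct of miR-28-5p minus that of miR-28-3p. Each assay has its own efficiency, so the size of this difference is not a ratio of molecules, but its shift between samples can be read. The difference was 3.21 cycles in the hypoxic and 3.07 in the normoxic exosome fraction, and 0.98 in hypoxic cells. In normoxic cells it was at least 3.16, with the 5′ arm at the ceiling. miR-28-3p was the earlier arm in every sample, by about 3 cycles or more in all but the hypoxic cells, where the arms were nearly 1 cycle apart.

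Between oxygen levels the arm difference of miR-28 therefore shifted by 0.14 cycle in the exosome fraction, hypoxia minus normoxia, and in cells by -2.18 cycles or further below 0. The later Ct of miR-28-3p contributes 1.12 cycles to the cellular shift, and miR-28-5p coming under the ceiling contributes 1.06 cycles or more. The card holds both arms of 48 hairpins. In the exosome fraction 15 of these were measured in both samples and 13.3% shifted by 1 cycle or more; 12 of the other 14 shifted by more than miR-28. In cells 7 hairpins, miR-28 not among them, had both arms measured in both samples, and the percentage past 1 cycle was 0. Their shifts lay between -0.87 (miR-324) and 0.89 (miR-193a). Behind these came 0.64 for miR-532 and 0.17 for miR-142 upward, and -0.35 for miR-886 and -0.12 for miR-140 downward. The 7 leave out, by definition, every hairpin with an arm crossing the ceiling, as miR-28 does. Its shift also contains the cellular change of miR-28-3p known beforehand, so nothing is read from this comparison.

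In 5 hairpins, miR-28 among them, an arm crossed the ceiling in cells, so that their shifts are at best bounds. The shift was at least 2.07 cycles for miR-455, whose 3′ arm appeared in hypoxia (32.36), at least 1.55 for miR-331 and at least 0.47 for miR-330, both of whose 5′ arms were seen in normoxia only. Only the 3′ arm of miR-525 was seen, in normoxia at a Ct of 34.99. With both of its arms at the ceiling in hypoxia, its shift has no bound. The bound for miR-28 was close in size to that of miR-455, which ran the other way. A member's crossing of the ceiling and the grain of about 1 cycle touch every one of these bounds, and their part in the shift of miR-28 was not tested.

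**Figure D4:**
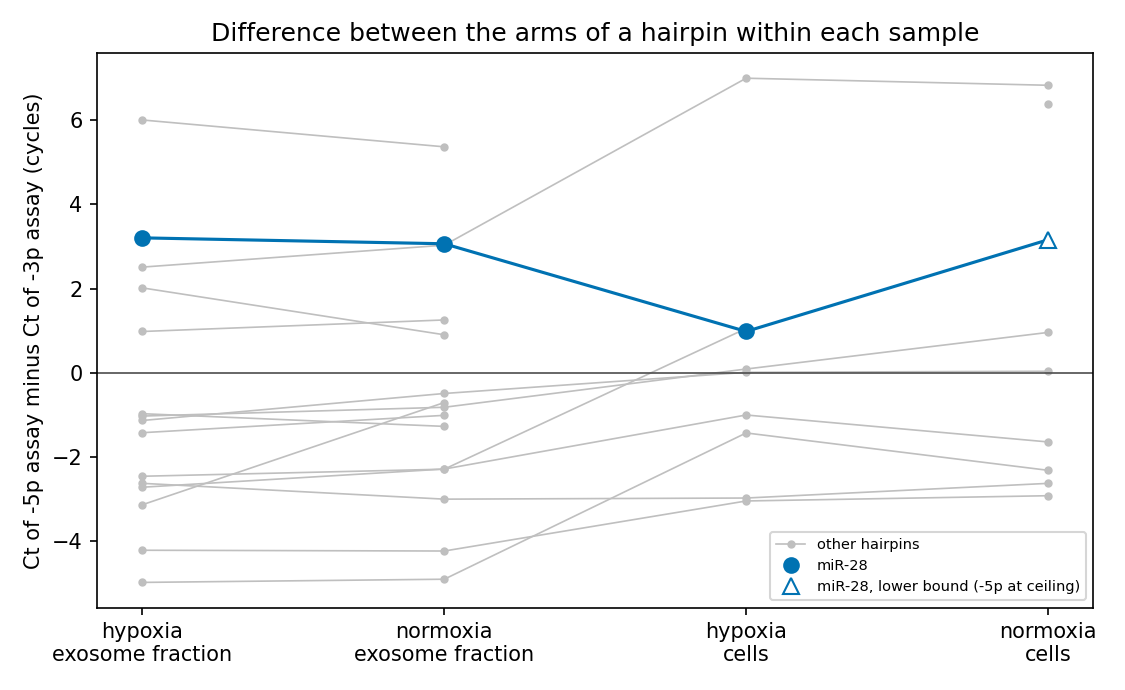
Ct of the 5′ arm minus Ct of the 3′ arm (y axis, cycles) within each of the 4 samples (x axis); blue is miR-28, with filled circles where both arms were measured and an open triangle for the lower bound in normoxic cells, and grey shows the 14 other hairpins with both arms measured in 2 or more samples. miR-28 stands at 3.21 and 3.07 in the hypoxic and normoxic exosome fraction, at 0.98 in hypoxic cells and at 3.16 or more in normoxic cells.

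Between compartments the arm difference of miR-28 was 2.22 cycles wider in the exosome fraction than in cells under hypoxia. In normoxia it was narrower in the exosome fraction by 0.09 cycle or more (at most -0.09, exosome fraction minus cells). The other 8 hairpins measured in hypoxia in both compartments had shifts of -4.49 (miR-142) to 0.35 (miR-886), with a median of -1.44, and all 8 lay below miR-28. The lowest after miR-142 were miR-193a (-3.55) and miR-455 (-3.51), and the highest after miR-886 were miR-324 (-1.12) and miR-339 (-1.14). Shifts of 1 cycle or more were the rule here, at 88.9% of the 9 hairpins. The value of miR-28 rests on late Ct values in hypoxic cells, 33.94 for miR-28-5p and 32.96 for miR-28-3p. The latter is part of the contrast known beforehand. With Ct under 32 required, miR-28 dropped out and 5 hairpins remained, so nothing is read from its place. In normoxia 8 hairpins, miR-28 not included, were measured in both compartments, with a range of -3.80 (miR-142) to -0.38 (miR-886). Between them stood miR-193a (-2.59) and miR-324 (-1.78) at the low end and miR-339 (-0.53) and miR-532 (-0.64) at the high end. Pre-amplification was applied to the exosome fraction only and can act unequally on assays; its part in these shifts cannot be told apart from that of the compartment.

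No control RNA was detected in both compartments, so levels in the exosome fraction relative to cells were centred on each sample's median Ct over the 138 assays detected in all 4 samples (23.99 in the hypoxic and 23.96 in the normoxic exosome fraction, 30.97 in hypoxic and 30.91 in normoxic cells). On this scale miR-28-3p had a log2 ratio of exosome fraction over cells of 0.04 in hypoxia and -0.98 in normoxia. miR-28-5p had -2.19 in hypoxia and at least -0.89 in normoxia, and miR-708 at least -3.49 in hypoxia and at least -3.91 in normoxia, and these 3 bounds leave the direction unknown. Past 4-fold in the same direction at both oxygen levels were 19.6% of the 138 assays, and miR-28-3p was not among them. Centring on the mean moved the value of miR-28-3p to 0.97 in hypoxia and -0.33 in normoxia and that of miR-28-5p to -1.25 in hypoxia, within 4-fold. In hypoxia 31 of the 138 assays stood higher than miR-28-3p and 110 higher than miR-28-5p; in normoxia 91 stood higher than miR-28-3p.

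The assays with the pattern most like miR-28-3p were miR-185, miR-205 and miR-886-3p, by Euclidean distance over the 4 Ct values after subtracting each sample's median and the assay's own mean. Their distances were 0.08, 0.19 and 0.46 (log2 units), against a median of 1.52 over the other assays detected in all 4 samples. miR-185 had a Ct of 26.98 in the hypoxic and 26.93 in the normoxic exosome fraction, and 33.97 in hypoxic and 32.79 in normoxic cells. Its log2 ratios of hypoxia over normoxia were 0.01 in the exosome fraction and -1.18 in cells. miR-205 had 0.04 and -0.88, and miR-886-3p 0.07 and -0.56, in the exosome fraction and in cells. All 3 had a flat exosome value and a later Ct in hypoxic cells, as miR-28-3p did. They were picked for likeness over these same values, so this sharing follows from the selection and nothing is read from it.

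Other miRNAs of B cells were detected alongside the miR-28 arms. In a list of 12 B-cell and germinal-centre miRNAs, 11 were measured in the exosome fraction and 11 in cells, none past 2-fold with oxygen in either, against 7.39% and 13.6% of all assays measured there. The list's median log2 ratio was -0.35 in the exosome fraction and 0.07 in cells, where that of all assays was -0.07 and 0.03. The members earliest by Ct averaged across the 4 samples, with their log2 ratios in the exosome fraction and in cells, were miR-146a (-0.16 and 0.23), which dampens NF-kB signalling, miR-142-3p (-0.40 and -0.02), a general blood-cell miRNA, miR-148a (-0.36 and -0.02) and miR-21 (0.26 and -0.24).

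The list of miRNAs tied to endoplasmic reticulum stress or its signalling, the setting in which miR-708 is known, had 5 of 6 members on the card. In the exosome fraction 4 were measured, none past 2-fold (7.39% of all assays), with a median log2 ratio of -0.04. In cells 3 were measured with a median of 0.29, and of these miR-221 was past 2-fold (-1.03), as were 13.6% of all assays. miR-211, like miR-708, was at the ceiling in both cell samples and seen in the exosome fraction (Ct 26.97 in hypoxia and 26.98 in normoxia, log2 0.06). miR-204 had log2 ratios of 0.09 in the exosome fraction and 0.74 in cells, miR-222 of -0.37 and 0.29, and miR-346 was not seen in any sample.

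Since MIR28 and MIR708 lie inside protein-coding genes, a list of 32 other assays known as intronic was set beside them. In the exosome fraction 25 were measured, with 3 at least 2-fold higher in hypoxia, none lower, and a median of -0.16, where 7.39% of all assays were past 2-fold in either direction. The 3 were miR-224 (1.54), miR-338-3p (1.40) and miR-33b (1.37), all at the ceiling in both cell samples, as miR-708 was; of the 50 assays of that kind, 13 were past 2-fold in the exosome fraction. Outside these counts, miR-139-3p had a Ct of 27.94 in the hypoxic exosome fraction and was at the ceiling in the normoxic one. In cells 19 members were measured in both samples, none past 2-fold, where 13.6% of all assays were, with a median of -0.06. A further 2, miR-455-3p (32.36) and miR-107 (33.10), were seen in hypoxic cells only, and 1, miR-330-5p (33.97), in normoxic cells only. Taken against the ceiling, all of these one-sided assays were past 2-fold as bounds. The other members earliest by Ct averaged across the 4 samples, with their log2 ratios in the exosome fraction and in cells, were miR-126 (-0.27 and 0.01), miR-93 (-0.21 and -0.32), miR-106b (-0.34 and 0.31) and miR-186 (0.02 and -0.06).

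The label of the line was checked against miRNAs of several cell types. All 6 lymphoid and blood markers were detected in every sample, with the lowest Ct at 18.96 in the hypoxic and 18.75 in the normoxic exosome fraction, and 24.97 in hypoxic and 24.95 in normoxic cells; miR-150 stood at log2 -0.38 in the exosome fraction and 0.86 in cells, and miR-142-5p at 0.12 and -0.19. Of the 6 epithelial markers, 4 were also detected in every sample (miR-200a, miR-200b, miR-203 and miR-205), with lowest Ct values of 23.63 and 23.77 in the hypoxic and normoxic exosome fraction and of 28.64 and 28.96 in hypoxic and normoxic cells. The epithelial miR-200c was seen in cells only (32.99 in hypoxia and 32.82 in normoxia). miR-141 was seen in the exosome fraction only (30.12 in hypoxia and 30.98 in normoxia). The liver marker miR-122 and the red-cell miR-486-5p were at the ceiling throughout. miR-126, an endothelial and platelet miRNA, was detected in every sample, with a Ct of 21.97 in the hypoxic and 21.65 in the normoxic exosome fraction, and 25.97 in hypoxic and 25.98 in normoxic cells, while miR-451 was seen only in the normoxic exosome fraction (33.19). Of the muscle miRNAs, miR-133a was seen in the hypoxic (28.07) and normoxic (27.94) exosome fraction and in hypoxic cells (32.96), miR-133b only in the normoxic exosome fraction (31.08), and miR-1 had a log2 ratio of 1.00 in the exosome fraction at late Ct values. Of the neural markers, miR-9 was detected in every sample, with a Ct of 26.94 in the hypoxic and 25.99 in the normoxic exosome fraction. In hypoxic cells its Ct was 28.87 and in normoxic cells 28.94. Its log2 ratio was -0.90 in the exosome fraction and 0.06 in cells, and miR-124 was seen in the exosome fraction only. Detection was thus not limited to the lymphoid and blood markers. The part of these markers in the values of the miR-28 arms and miR-708 was not tested.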

How the data were processed

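Per the series' design text, RNA was run on TaqMan Human miRNA Array A cards and the arrays were processed with Data Assist software version 3.1. The authors deposited threshold cycles (Ct, not normalized) and a ratio of hypoxia over normoxia per well. The sources used here do not say where the value 35 comes from. Per the labels' protocols, each lysate received 1 µl of the spike-in at 1 nM and 3 µl of each 50 µl eluate was reverse transcribed. The spike-in was at the ceiling of 35 in both the hypoxic and the normoxic cells. Log2 ratios were computed from Ct as the negative difference of normalized Ct, with U6 as normalizer in cells and ath-miR159 in the exosome fraction. They differed from the deposited ratios by at most 0.000356 (log2) among assays under Ct 35 in both samples. A call was 2-fold (4-fold between compartments) and an arm shift 1 cycle. The depth behind a Ct is unknown, and no test was made with 1 sample a group. Calculations ran in Python 3.11.15 with numpy 2.4.6 and pandas 2.3.3. The oxygen ratios were tested on simulated data with planted 4-fold changes. The noise was the SD of the U6 wells averaged over the 4 samples, which is 0 in the exosome fraction, where U6 was at the ceiling. The latest assays received no planted change, and the bunching at whole cycles was not modelled. At such small noise a 4-fold change could hardly miss a 2-fold call. The simulation therefore checks the calculation only and says nothing about the error of the members' values. Arm shifts and bounds at the ceiling were not tested in that way.

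The members and lists were chosen with earlier results of these data known. Named assays are the members, controls, the nearest assays in order and pattern, the 3 largest arm shifts per direction, and list members past 2-fold or with the lowest mean Ct (up to 4). Bounds at the ceiling, hairpins crossing it, and further assays in the marker lists were named after their values were seen. Alternatives were other normalizers, other centrings and a limit of Ct 32.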

Additional observations from a re-analysis of the deposited data

Results flagged for a closer look

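miR-28-5p was close to level in the exosome fraction, with a log2 ratio of hypoxia over normoxia of -0.15. In cells the ratio was at least 1.05, 1 sample per group. Of the 203 assays measured in both exosome samples, 131 had a larger absolute log2 ratio. With RNU44 and RNU48 the cellular bound was 0.90. The difference between the compartments was not tested. The exosome value is 0.20 cycle between raw Ct values of 29.14 in hypoxia and 28.94 in normoxia, and the cellular bound rests on a Ct of 33.94 in hypoxic cells against the ceiling.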

How the results depend on the processing

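The limit on movement was 0.19 on the log2 scale. For the difference between compartments it was that times the square root of 2, and for counts 1.5 times. The 0.19 combines the SDs of the U6 wells in hypoxic (0.12) and normoxic (0.15) cells. It is not a spread of the members' own values and has no counterpart in the exosome fraction, where U6 was at the ceiling. Of 56 alternative values, 36 kept their call and moved within the limit, 20 moved more or lost their call, and 0 called values reversed. The oxygen responses of miR-28-3p, and those of miR-28-5p and miR-708 in the exosome fraction, were among the former under each normalizer, with miR-28-3p in cells between -1.27 and -1.06. With RNU44 and RNU48 the bound of miR-28-5p in cells was 0.90 and assays at least 2-fold higher in cells numbered 6 (11 with U6). Requiring Ct under 32 in both samples gave 2 higher and 0 lower in the exosome fraction (8 and 7 before), and 1 higher and 4 lower in cells (11 and 9 before), by construction over fewer assays. Centring moved every value of the exosome fraction over cells. Centring on the mean gave 0.97 in hypoxia and -0.33 in normoxia for miR-28-3p, -1.25 and at least -0.23 for miR-28-5p, and at least -2.56 and -3.25 for miR-708. Centring on the median of the 89 assays under Ct 32 in all 4 samples gave, in the same order, 1.03 and -0.24, -1.19 and -0.14, and -2.50 and -3.16. With percentile ranks miR-28-3p stood 11.6 percentage points higher in hypoxia and had -5.80 points in normoxia. Both are counted among the 20, although a log2 limit does not apply to percentage points. The cause of the movements was not tested. No paired analysis was possible because each group is 1 sample. Late Ct values limit the cellular results: miR-28-3p in hypoxic cells lay 2.04 cycles and miR-28-5p 1.06 cycles from the ceiling.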
